A study of Mus musculus with 4 samples.

Results

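The genomic intervals described here are those in which more than 1 summit of CHD4 signal was called in mouse cells labelled spermatogonial. They were chosen by a value of the peak call itself, the number of summits listed for an interval, and every interval with 2 or more entered. This gave 182 of 1849 intervals, which is 9.84% (exact 95% binomial interval 8.52 to 11.3), with 399 of the 2066 summits. Since the summit number and the values of the same contrast of CHD4 with IgG (fold, q, fragments and width) come from the call that selected the intervals, they are given as a description without a test.

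The study mapped CHD4 by CUT&Tag in C57BL/6 mice, with 2 samples treated with an antibody against CHD4 and 2 control samples whose antibody is labelled as a rabbit antibody against mouse IgG joined to HRP. Digested testes were the starting material in both groups, and no other genotype or treatment is labelled. A step that enriches spermatogonial cells is not given in the labels. The 4 samples are called biological replicates in the design, but the peak list is 1 call over CHD4 and IgG with no value for a single sample, so no interval below has a replicate check. Shares are given with exact 95% binomial intervals and medians with 95% intervals from order statistics. Both cover counting error only and treat intervals as independent, which neighbours in the genome are not.

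CHD4 is the motor subunit, an ATPase, of NuRD, a nucleosome remodelling and deacetylase complex, which slides nucleosomes and removes acetyl groups from histones, and it is found at promoters and enhancers in many cell types. In CUT&Tag the antibody tethers a Tn5 transposase that cuts and tags nearby DNA, so that fragments pile up around the bound protein. A peak caller joins a continuous stretch of such signal into an interval and can place several summits, the local maxima of the pile, within it.

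The deposited list holds no sequence, so DNA could be shown only where an interval meets a RefSeq promoter window, which runs from 250 bases before to 50 bases after a transcript start in GRCm38.p6. Windows of 36 genes met 27 of the 182 intervals. The 5 stretches below were picked to show how a pair of summits lies about a start: with both summits in the printed DNA (Rpl27a and 4930554I06Rik), with 1 on each side of a start (Paf1), and in the short gap between 2 genes transcribed away from each other (H2bc11 with H2ac11, Higd2a with Nop16). Each is the plus strand, 5′ to 3′, ends on the base before the RefSeq start, and has in capitals the 11 bases centred on each summit that falls inside it, cut short where the stretch ends.
Rpl27a, chr7:109518945-109519194: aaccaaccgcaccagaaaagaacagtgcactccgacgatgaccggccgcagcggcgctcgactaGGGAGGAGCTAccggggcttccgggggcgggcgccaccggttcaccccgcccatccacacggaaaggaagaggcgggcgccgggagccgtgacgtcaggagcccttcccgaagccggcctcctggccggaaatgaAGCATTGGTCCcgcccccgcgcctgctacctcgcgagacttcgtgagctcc
4930554I06Rik, chr19:21104460-21104709: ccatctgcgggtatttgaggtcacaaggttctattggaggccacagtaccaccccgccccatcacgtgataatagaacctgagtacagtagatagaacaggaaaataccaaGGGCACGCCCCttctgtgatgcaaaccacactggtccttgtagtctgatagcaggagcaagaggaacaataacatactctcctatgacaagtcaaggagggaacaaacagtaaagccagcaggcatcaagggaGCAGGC
Paf1, chr7:28392746-28392995: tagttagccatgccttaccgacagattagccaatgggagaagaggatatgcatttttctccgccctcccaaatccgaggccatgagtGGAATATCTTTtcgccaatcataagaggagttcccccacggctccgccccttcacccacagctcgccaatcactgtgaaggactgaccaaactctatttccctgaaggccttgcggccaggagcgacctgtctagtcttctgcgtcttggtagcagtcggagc
H2bc11, chr13:22042950-22043197: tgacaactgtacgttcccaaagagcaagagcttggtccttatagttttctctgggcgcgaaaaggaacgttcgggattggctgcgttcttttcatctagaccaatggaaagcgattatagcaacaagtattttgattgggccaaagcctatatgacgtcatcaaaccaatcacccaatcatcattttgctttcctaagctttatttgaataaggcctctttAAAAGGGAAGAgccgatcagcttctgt
Higd2a, chr13:54590098-54590230: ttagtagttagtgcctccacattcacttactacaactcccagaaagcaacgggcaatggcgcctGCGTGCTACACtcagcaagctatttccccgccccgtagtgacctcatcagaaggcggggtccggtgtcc

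In the stretch before Rpl27a, a protein of the large ribosomal subunit, the summits lay at -181 and -46 from the RefSeq start. A CCAAT box (CCAAT on either strand) begins at -48, inside the second run of capitals, and GC boxes (GGGCGG on either strand) begin at -162, -140 and -41. The authors' transcript start for Rpl27a differs from that of RefSeq, and from it the same summits lay at -133 and 2. The 4930554I06Rik stretch has summits at -134 and -1. The authors gave this interval to Tmc1, a channel gene of hair cells whose start is 150 kb away. In the stretch before Paf1, a subunit of an RNA polymerase II elongation complex, the upstream summit lay at -158 and CCAAT boxes begin at -221, -149 and -98. Its other summit lay at 116, beyond the printed DNA. Between H2ac11 and H2bc11, which encode histones H2A and H2B, 5 CCAAT boxes begin at -173, -148, -114, -83 and -75 from the start of H2bc11, and the summits lay outside this run, at -270 and -22. The gap between Nop16, a nucleolar protein of ribosome assembly, and Higd2a, a mitochondrial assembly factor, spans 133 bases. One summit lay within it at -64 from Higd2a and the other at -137, past the RefSeq start of Nop16 but 4 bp before the authors' start of that gene.

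Across the 36 genes the windows were rich in GC and held these motifs at shares close to those of windows met by single-summit intervals. The CCAAT box was present in 17 of 36 windows, or 47.2% (30.4 to 64.5), against 42.9% of the 385 windows met by single-summit intervals and 34.5% of all 27025 windows. The GC box was present in 75% (57.8 to 87.9), against 63.6% and 32.9%. The ETS core CCGGAA was present in 30.6% (16.3 to 48.1), against 23.4% and 12.2%. The TATA box TATAAA was present in 2 windows (5.56%, against 6.23% and 13%) and the AP-1 site TGANTCA in 4 (11.1%, against 6.75% and 6.87%). The E box CACGTG was in 2 (5.56%, against 9.61% and 6.05%). All motifs were searched on both strands, and they can overlap each other. The median GC content was 59.8%, against 59.6% and 52.0%. For each motif the exact interval of the 36 windows covers the share of the single-summit group. These intervals treat windows as independent. The 36 came from 27 intervals, of which 9 met windows on both strands, so that some DNA was counted more than once, as between H2ac11 and H2bc11.

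Most of the 182 intervals had 2 summits. There were 156 with 2, 21 with 3, 3 with 4, 1 with 5 and 1 with 7. Just outside the rule stood the 1667 intervals with 1 summit, of 184 to 983 bp with a median width of 269 bp, and just inside it the 156 with 2, of 202 to 1310 bp with a median of 492 bp. Intervals with 3 summits had a median width of 797 bp. Over all 182 the median was 512.5 bp (490 to 552).

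The share of intervals with several summits was larger in wider classes. Of the 687 intervals under 250 bp only 0.291% had several summits. The share was 9.46% (5.27 to 15.4) of 148 intervals from 350 to under 400 bp, 21.1% (16 to 27) of 227 from 400 to under 500 bp, and 53.1% (40.2 to 65.7) of 64 from 600 to under 800 bp. All 17 intervals of 1000 bp or more had several summits (80.5 to 100). Because width and summit number go together, comparisons of fold, location, small RNA genes and neighbours are also given for intervals of 400 to under 1000 bp, where there were 127 with several summits and 281 with 1. Even there the former were wider, with a median of 535 bp against 464 bp.

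**Figure D1:**
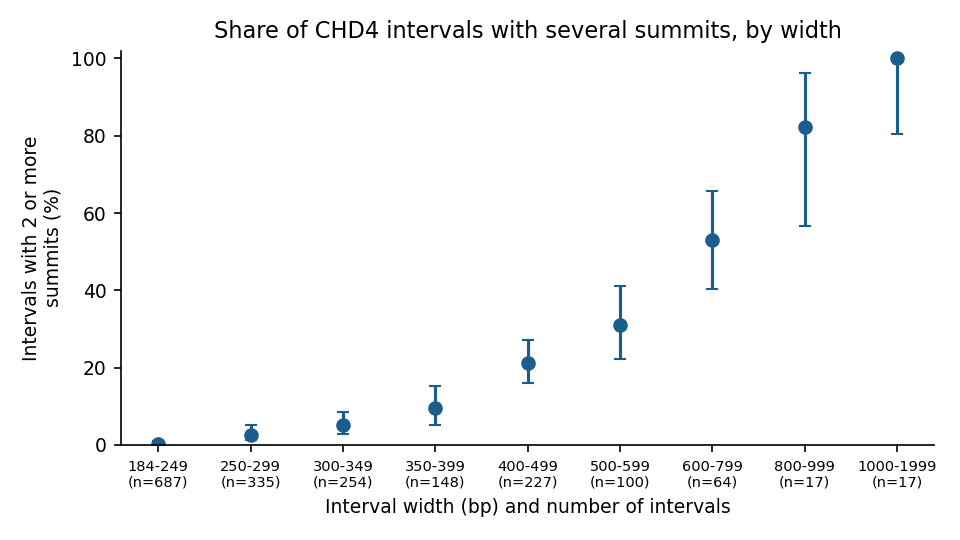
Share of CHD4 intervals with 2 or more summits (vertical axis, percent) in 9 classes of interval width (horizontal axis, bp, with the number of intervals in each). Points are shares and bars exact 95% binomial intervals; the share climbs from 0.291% in the narrowest class to 17 of 17 intervals in the widest.

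Neighbouring summits were most often between 150 and 250 bp apart. The 217 neighbouring pairs had a median spacing of 223 bp (205 to 238), quartiles of 157 and 323 bp and extremes of 5 and 995 bp. The fullest 50 bp bins were 150 to under 200 bp with 44 pairs (20.3%) and 200 to under 250 bp with 40 (18.4%). Only 19 pairs (8.76%) were under 100 bp apart and 25 (11.5%) were 400 bp or more apart. Pairs of intervals with exactly 2 summits had a median of 214.5 bp, and those of intervals with 3 or more a median of 233 bp. In the 2-summit intervals the spacing took a median of 46.9% of the width.

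Spacing differed little between most kinds of location. The median was 183 bp (155 to 211) in distal intergenic intervals, 214 bp (193 to 238) in introns, 216 bp (186 to 316) in exons and 248 bp (193 to 305) within 1 kb of a transcript start. The interval of the distal median ends below the median at promoters, while that of the promoter median reaches down to 193 bp. Over small RNA genes the median was 369 bp (261 to 404), and elsewhere 209.5 bp (190 to 226). The intervals over small RNA genes were also wider, with a median width of 1030 bp against 495 bp. Spacing was not compared at like widths. The exon and promoter medians include pairs over small RNA genes.

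**Figure D2:**
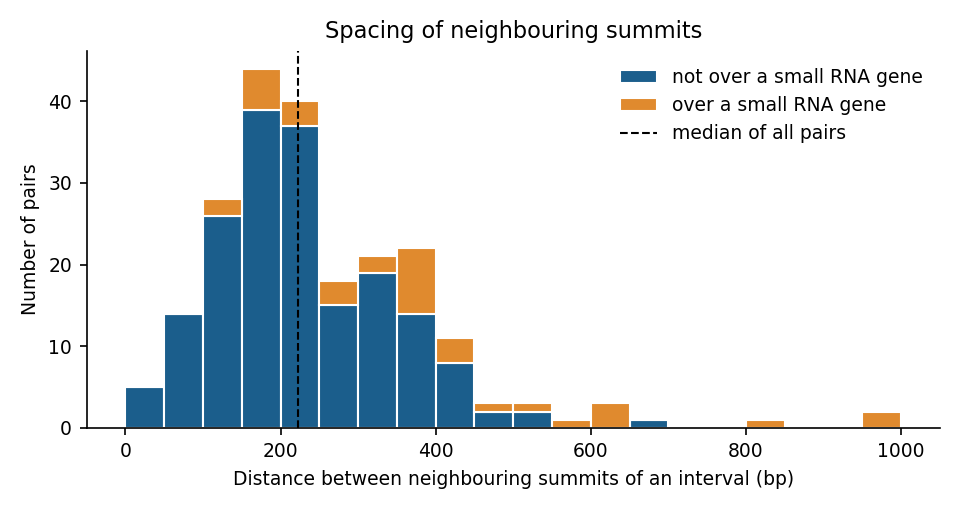
Number of neighbouring summit pairs (vertical axis) by their distance in bp (horizontal axis, bins of 50 bp), stacked by whether the interval overlaps a small RNA gene. The dashed line is the median of all 217 pairs, 223 bp; pairs over small RNA genes make up most of those beyond 550 bp.

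The 5 closest pairs lay 5, 23, 34, 36 and 40 bp apart. That of 5 bp was before Mir7671, a microRNA gene. That of 23 bp was before Gphn, which encodes the scaffold protein gephyrin of inhibitory synapses. That of 34 bp was 30.2 kb from 1700061N14Rik, and that of 36 bp was 15.7 kb from Snora31, a small nucleolar RNA gene. That of 40 bp was 5.23 kb from Akirin2, a nuclear factor that helps import proteasomes. The Akirin2 interval was also the narrowest of all 182, at 202 bp. Its summits had folds of 4.79 and 5 over 20 and 21 CHD4 fragments, numbers recovered from each summit's fold and p. The exact 95% Poisson intervals of these numbers, 12.2 to 30.9 and 13 to 32.1, overlap. Summits this close can count the same fragments, so the intervals do not compare them. The 5 widest gaps were 995 bp in an interval named for Tex14 over Rnu3b3, 992 bp near Arl4d over Rnu2-10, 814 bp at Rdm1 over LOC115487916, 670 bp at Synpo and 621 bp near Parp16 over Rnu5g. All but the Synpo gap were over a gene that RefSeq types as small nuclear RNA, a group described further on.

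The interval with the most summits, 7, lay on chromosome 8 from 84197414 to 84198682 (mm10, counted from 1, as are all positions here), 9.84 kb upstream of Mir23a, a microRNA gene. The authors classed it as exonic, and no gene of the RefSeq table overlapped it. Its folds ranged from 2.44 to 3.76, below the median of the 182 intervals. Its steps were 199, 157, 162, 189, 179 and 54 bp, so 5 of 6 fell between 157 and 199 bp. CHD4 fragments per summit ranged from 34 to 83. The summit with 83 fragments had the lowest fold, because the IgG expectation there was 14 fragments against 3.51 at the summits with 34.

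Next by number was an interval with 5 summits at D230017M19Rik on chromosome 1 from 72243788 to 72245264, which contains the annotated start of this transcript. Its summits lay 36, 420, 673, 1048 and 1149 bp downstream of the start, with folds of 5.52, 4.18, 4.78, 3.45 and 3.95. The small nuclear RNA gene Gm24497 lies between the first summit and the next. Of the 3 intervals with 4 summits, that of Plekho2 on chromosome 9 (65550088 to 65551339) had folds of 5.36, 6.23, 3.89 and 4.76. That of Gadd45b, a stress-induced gene of growth arrest and DNA repair, lay 8.24 kb away on chromosome 10 (80939052 to 80940010), with folds between 3.61 and 4.26 and 31 to 64 fragments. That of Parp16, an ADP-ribosyltransferase of the endoplasmic reticulum, was on chromosome 9 (65200385 to 65202383) and was the widest of all intervals, at 1999 bp.

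**Figure D3:**
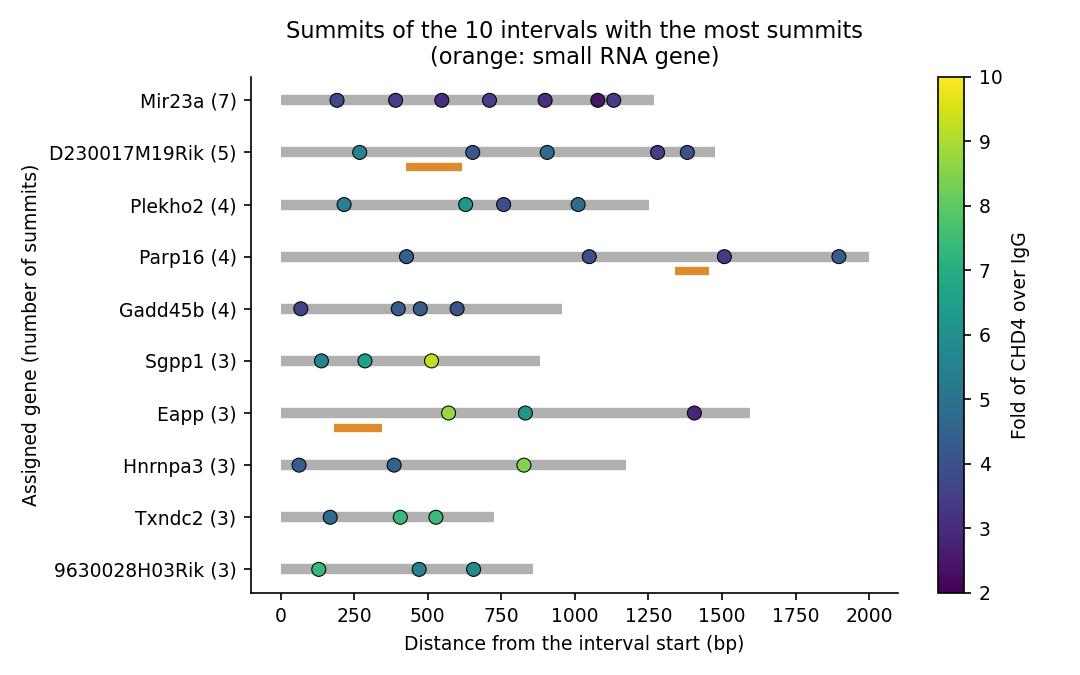
Positions of the summits (points, distance from the interval's start in bp on the horizontal axis) in the 10 intervals with the most summits, one per line with its assigned gene, the number of summits and a grey bar for its extent; colour gives the fold of CHD4 over IgG and orange bars mark small RNA genes. Mir23a shows 7 summits of low fold at fairly even steps, and no summit falls on an orange bar.

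The folds of summits of one interval mostly lay within 1.5 times of each other. The highest folds of all 1849 intervals had quartiles of 4.03 and 5.64. Summits of different intervals were not compared, so a likeness particular to summits of one interval is not shown. Fold is the authors' own value, the ratio of CHD4 to IgG signal at a summit. The ratio of the highest to the lowest fold in an interval had a median of 1.21 (range 1 to 3.09). It was under 1.2 in 90 intervals, above 1.5 in 31 and above 2 in 3, those of Eapp (3.09), D230017M19Rik (2.81) and Zfp184 (2.01). Recovered fragment numbers gave a median ratio of 1.25 in the same intervals, with a range of 1 to 5.52. The median fragment ratio was 1.72 over small RNA genes and 1.22 elsewhere. The summit of highest fold also had the most fragments in 110 of the 182. The summits with the most and the fewest fragments had exact 95% Poisson intervals that did not meet in 21 of the 182. Summits of one interval can share fragments, and the extremes were picked, so this count is no test of a difference. In 9 intervals 2 or more summits had the same fold, as in Fip1l1, with 4.73 over 25 fragments at both. Among the 156 with 2 summits, the one at the lower coordinate had the higher fold in 78 and the other one in 72, and 6 were tied.

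Depth limits such ratios. The 399 member summits held from 12 to 168 CHD4 fragments with a median of 31, and 46 of the 399 held fewer than 20. At 31 fragments the exact 95% Poisson interval runs from 21.1 to 44.0. In the summit with the highest fold of all 399, fold 11.6 in an intron of Tcf4 on chromosome 18 (69547506 to 69548081), there were 34 fragments (23.5 to 47.5) over an IgG expectation of 0.346, the lowest value the background can take. The other summit there, 261 bp away, had a fold of 10.1 over 30 fragments. Tcf4 encodes an E protein, a basic helix-loop-helix transcription factor.

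Other strong intervals varied in how far the fold of 1 summit stood above the rest. Zfp184, a zinc finger gene on chromosome 13 (21944687 to 21945581), had folds of 9.95 at -53 bp from its start and 4.95 at 374 bp, over 38 and 22 fragments. Rdh13, a retinol dehydrogenase gene on chromosome 7 (4445262 to 4445745), had 8.56 at 71 bp and 5.22 at 258 bp after its start. These held 25 and 22 fragments over IgG expectations of 0.369 and 1. Abca4, a retinoid transporter gene on chromosome 3 (122130582 to 122131215), had 3.91 and 7.77 over 27 and 66 fragments, at -1372 and -1021 bp. At Hnrnpa3, which encodes an RNA-binding protein and lies 15.6 kb away on chromosome 2, the summits held 19, 29 and 32 fragments. Their folds were 4.34, 4.48 and 8.47. At Sgpp1, a phosphatase gene of sphingolipid metabolism 32.6 kb away on chromosome 12, they were 5.64, 6.50 and 9.20 over 24, 28 and 31 fragments. An interval in an intron of Plcb1, named for 9630028H03Rik, had 3 summits with folds of 7.36, 5.62 and 5.76 over 32, 37 and 26 fragments. Of these, the fragment intervals are apart only at Abca4, 17.8 to 39.3 against 51 to 84. As summits of one interval can share fragments, this is no test of a difference. The remaining ones among the 10 highest were named for Tnfsfm13 (8.78, 10.4 kb away), Eapp (8.74, 0.704 kb), Armh1 (8.25, 10.8 kb) and Adtrp (8.09, 94.5 kb).

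Over the group, the strongest summit was of ordinary fold. The median of the highest fold was 5.05 (4.79 to 5.27) in intervals with several summits and 4.73 (4.60 to 4.79) in those with 1. Among intervals of 400 to under 1000 bp the order was the other way, 5.17 (4.92 to 5.72) against 5.30 (5 to 5.54), with intervals that overlap widely. Every summit had a q of 0.01 or less in 97 of the 182, and 72 of the 182 kept 1 summit or none at this q. The lowest −log10 q of an interval had a median of 2.02 in the group. In single-summit intervals 2.02 was the lower quartile. An interval with more summits has more that must pass.

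By location, the group had a larger share in exons than single-summit intervals, and this gap was smaller at like widths. Its share within 1 kb of a start was smaller over all widths, with an interval that covers the single-summit share. At like widths the order of the promoter shares turned. Within 1 kb of a start lay 52 intervals, or 28.6% (22.1 to 35.7), against 34.7% (32.4 to 37.1) of single-summit intervals and 34.1% of all. From 400 to under 1000 bp the shares were 25.2% (17.9 to 33.7) and 24.6% (19.6 to 30.0). Introns held 26.4% against 26.7%, and distal intergenic DNA 23.1% against 24.9%. Exons held 24 intervals, 13.2% (8.64 to 19.0), against 3.48% (2.65 to 4.47), and from 400 to under 1000 bp 11% (6.16 to 17.8) against 5.69% (3.29 to 9.08), with intervals that overlap. Without intervals over small RNA genes, exonic intervals were 12 of 158 (7.59%, 3.99 to 12.9) and 52 of 1645 (3.16%, 2.37 to 4.12). A single interval of the group was classed in a 3′ UTR, and none in a 5′ UTR.

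**Figure D4:**
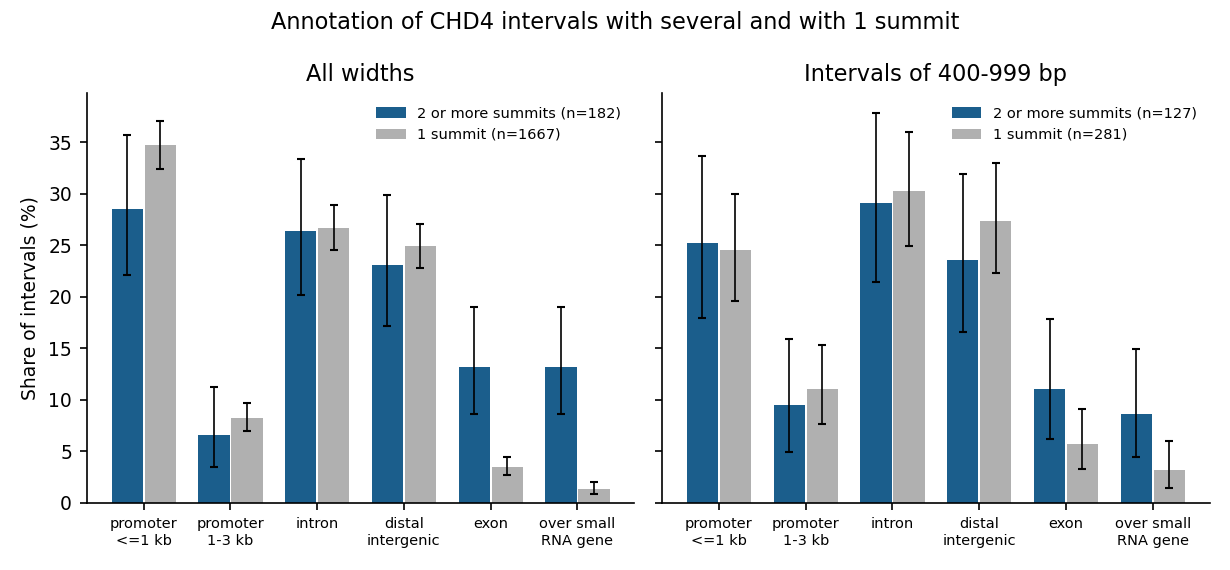
Share of intervals (vertical axis, percent) in each of the authors' annotation classes and over a small RNA gene, for intervals with 2 or more summits (blue) and with 1 (grey), for all widths on the left and for 400 to under 1000 bp on the right. Bars are shares with exact 95% binomial intervals; exon and small RNA shares are higher in blue on the left, while the promoter shares on the right are 25.2% and 24.6%.

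Intervals over small RNA genes made up a larger part of this group than of the single-summit intervals. Most but not all RNAs typed as small nuclear are RNA cores of the spliceosome, and transfer RNAs deliver amino acids to ribosomes. Both kinds of gene are short and exist in many near-identical copies. A gene for a small nuclear, small nucleolar, transfer, ribosomal or 7S RNA was overlapped by 24 of the 182 intervals, 13.2% (8.64 to 19.0), against 22 of 1667, 1.32% (0.829 to 1.99), and 2.49% of all. Put the other way, 52.2% (36.9 to 67.1) of the 46 such intervals had several summits. From 400 to under 1000 bp the shares were 8.66% (4.40 to 15) and 3.20% (1.47 to 5.99), and these intervals overlap. The kinds of gene, as typed by RefSeq, differed. Of the 24, 20 were over small nuclear RNA genes, Rnu3b3 among them, and 4 over transfer RNA genes. Of the 22 with 1 summit, 5 were over small nuclear and 15 over transfer RNA genes.

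The small RNA intervals were the widest of the group. They accounted for 12 of the 17 intervals of 1000 bp or more, for 8 of the 10 widest, and had a median width of 1030 bp against 495 bp in the other 158. Their signal was high in both antibodies: the summit with the most CHD4 fragments had a median of 95 fragments, against 31.5, and the IgG expectation at the strongest summit a median of 5, against 1.57. The median of the highest fold was 4.56, against 5.07. The placing of reads that fit several copies is not given in the sources, and the part this plays in these values was not tested.

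No summit of the 24 lay on the small RNA gene itself. The genes covered 10.8% of the bases of these intervals. Of the 59 summits 0 fell inside a gene and 27 were within 200 bp of it, with a median distance of 207 bp. Some genes only reach an interval's edge, as Gm22265 does, and no first summit of the 182 lay under 42 bp from the interval's start. The share of bases therefore does not give the number of summits to be awaited inside the genes. In 12 of the 24 intervals summits lay on both sides of the gene. In the 22 single-summit intervals 3 summits fell inside the gene, which covered 19.5% of the bases. At Rnu5g, a gene of the U5 RNA of the spliceosome, near Parp16, the summits lay 428, 1049, 1508 and 1897 bp into the interval, with folds of 4.36, 3.90, 3.38 and 4.30 and 79, 116, 39 and 24 CHD4 fragments. At Rnu2-10, a gene of U2 RNA 5.35 kb from Arl4d on chromosome 11 (101658368 to 101660188), the most fragments of the group, 168 (143.6 to 195.4), were at a summit of fold 4.30 with an IgG expectation of 16. The highest fold there, 6.09, was at a summit with 46 fragments. At Gm22513 near Eapp on chromosome 12 (54696601 to 54698196) the folds were lower at summits farther from the gene, 8.74, 6.21 and 2.83, over 120, 128 and 57 fragments.

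Genes of the minor spliceosome were also in the group. Rnu11 on chromosome 4 (132269613 to 132270691) had summits at -63 and 341 bp from its start, with folds of 6.32 and 5.61. These held 26 and 50 fragments. Rnu12 on chromosome 15 (83149459 to 83150225) had summits at -92 and 266 bp, with folds of 3.07 and 2.55 over 71 and 75 fragments. Each pair stood clear of the transcribed gene, which spans 108 bp at Rnu11 and 150 bp at Rnu12. The transfer RNA members included an interval near Trim27 on chromosome 13 (21169740 to 21170383) that overlaps 3 such genes, with a highest fold of 7.48.

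A transcript start lay inside 35 of the 182 intervals, 19.2% (13.8 to 25.7), against 15.3% (13.6 to 17.1) of single-summit intervals, and from 400 to under 1000 bp the shares were 17.3% (11.2 to 25) and 15.7% (11.6 to 20.4). In 21 of the 35 the summits lay on both sides of the start, in 5 all upstream and in 9 all downstream. Where they straddled the start, the most upstream summit had a median position of -119 bp and the most downstream one of 161 bp. The summit of highest fold, which need not hold the most fragments, was upstream in 17 and downstream in 17. At Fip1l1 a summit on each side had the same fold. In 14 of the 35 a summit lay within 50 bp of the start, and in 77 of the 255 single-summit intervals with a start the summit did. An interval with more summits has more chances for a summit to lie this close, so these counts do not set the group apart. The 255 single-summit intervals with a start had a median summit position of 35 bp downstream.

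Straddling pairs came from genes of varied roles. Camkk2, a calcium-dependent kinase gene on chromosome 5 (122763561 to 122764161), had folds of 6.34 at -228 bp and 5.45 at 112 bp, over 19 and 16 fragments. Paf1, whose upstream DNA is printed above, had 5.93 at -113 bp and 3.73 at 161 bp from the authors' start. Kat8, a histone H4 acetyltransferase gene on chromosome 7 (127912192 to 127912707), had 5.26 at -193 bp and 5.22 at 93 bp. Stil, a gene of centriole duplication on chromosome 4 (114999936 to 115000761), had 3.02 at -150 bp, 4.38 at 84 bp and 5.45 at 468 bp. The fragments at these Stil summits ran the other way, 40, 23 and 16, over IgG expectations of 5, 1.48 and 0.443. Ptdss1, a phosphatidylserine synthase gene on chromosome 13 (66932832 to 66933327), had 4.70 at -263 bp and 3.46 at 42 bp, and its interval also overlaps Mterf3. Fip1l1, a gene of messenger RNA 3′ processing, had summits at -82 and 57 bp. Only 5 intervals had summits at least 100 bp away on each side, those of Camkk2, Paf1, Stil, Pex13 and Mynn. Besides Zfp184, only Paf1 and Stil among these named intervals had folds more than 1.5 times apart.

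**Figure D5:**
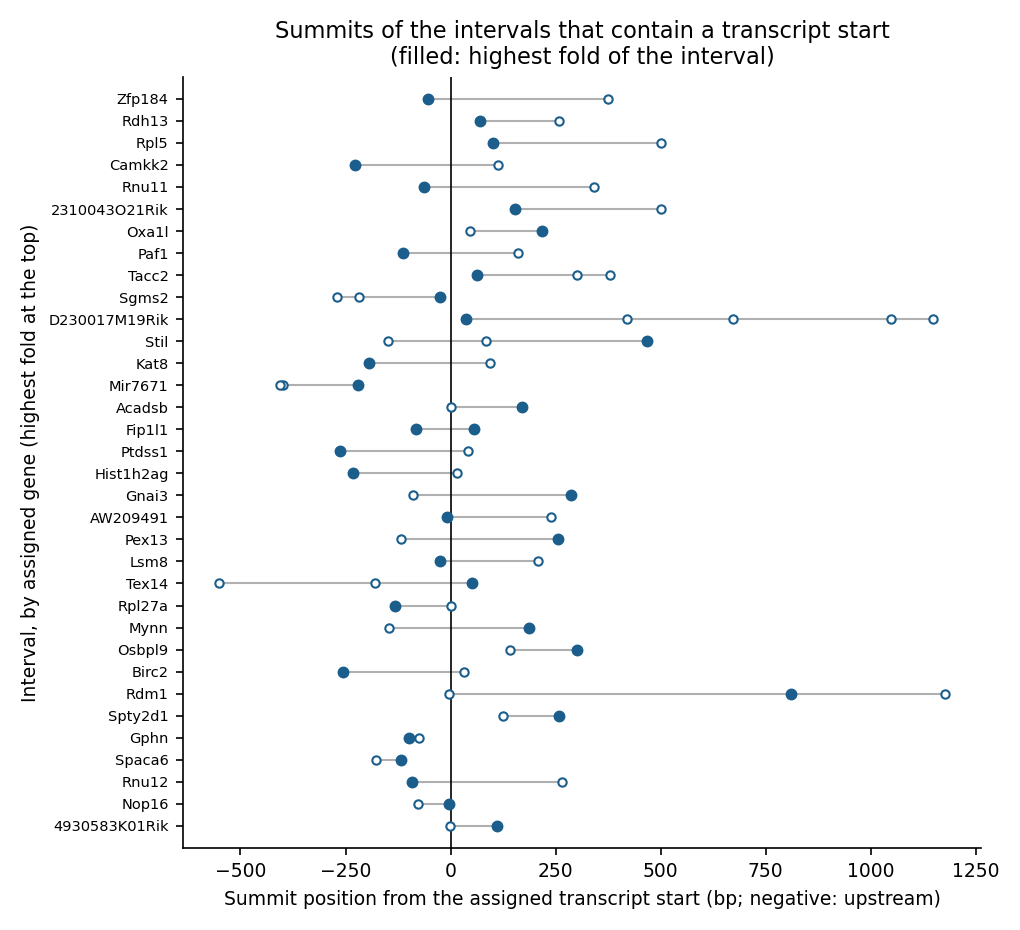
Summit positions (horizontal axis, bp from the assigned transcript start, negative upstream) in 34 of the intervals that contain a start, one line each, ordered from the highest fold at the top; the filled point is the summit of highest fold (both points at Fip1l1, where they tie). Lines cross the vertical line at 0 in 20 of them, and the strongest summit is upstream in 17, downstream in 16 and tied in 1.

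Genes transcribed in opposite directions from nearby starts were present at several of these promoters. Of the 27 intervals that met RefSeq promoter windows, 9 met windows on both strands, 33.3% (16.5 to 54.0), against 51 of 334 single-summit intervals, 15.3% (11.6 to 19.6). From 400 to under 1000 bp this was 5 of 17 against 7 of 40, 29.4% (10.3 to 56.0) and 17.5% (7.34 to 32.8), which cannot be told apart at these numbers. The histone pair and the Nop16 with Higd2a pair printed above are among the 9. At the histone pair, which the authors named Hist1h2ag, the folds were 3.79 near the H2ac11 start and 4.66 near the H2bc11 start, over 31 (21.1 to 44.0) and 52 (38.8 to 68.2) fragments. At Nop16 they were 3.05 and 2.59, both low for the group.

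The 182 intervals were named for 169 genes, and 11 genes had more than 1 of them. Tex14, a gene of the bridges between germ cells, had 3 of its 7 intervals in the group, and D230017M19Rik had 3 of 6. Each of these was over a gene that RefSeq types as small nuclear RNA. Txndc2, a thioredoxin gene of spermatids, had 2 of 6, A630001O12Rik, Camkk2 and Rdm1 had 2 of 3, and Abtb2, Errfi1, Parp16, Synpo and Tnfsfm13 had both of 2. At Errfi1, a feedback inhibitor of the EGF receptor, the intervals lay 53.6 and 47.9 kb upstream, 1 with summits of 4.24, 3.02 and 3.46 and the other with 3.20 and 3.63. At Synpo, an actin-associated protein, they lay 2.95 and 0.251 kb from the start, with the most fragments, 72 (56.3 to 90.7), at the summit 3748 bp away. At Txndc2 the 3-summit interval, in an intron of Rab31, had folds of 4.76, 7.43 and 7.43 with 31 fragments at every summit, so its differences in fold came from the IgG expectation, 2.00 against 0.923.

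Members of the gene lists were few. Of the intervals named for markers of undifferentiated spermatogonia 1 of 4 was in the group, that of Spry4, an inhibitor of growth factor signalling, with folds of 4.55 and 5.11 at -338 and -551 bp. Of 13 named for immediate early and AP-1 genes there was 1, near Ier3, a stress-induced survival gene, with 3.81 and 2.85 over 59 and 84 fragments at 8.12 kb. Ribosomal protein genes had 2 of 13, Rpl27a (4.22 and 3.45) and Rpl5 (6.72 and 6.00), replication-dependent histones 1 of 13, the Hist1h2ag interval, and zinc finger genes 2 of 38, Zfp184 and Zfp239 (3.35 and 3.65). None was in the group of 12 for heat shock genes, 4 for Sertoli cell markers, 3 for myoid and endothelial markers, 2 for meiosis, 1 for spermatids, 4 for NuRD and LSD1 genes and 4 for apoptosis genes. Markers of differentiating spermatogonia and Leydig cells named no interval at all. Against the 9.84% over all intervals, these counts are too small to set any list apart, and occupancy does not show which cells carried it.

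Long non-coding RNA genes were assigned 29 of the 182 intervals, out of 184 in the whole list, and protein-coding genes 144 of 1598. Over all intervals the share with several summits was 9.84%. These counts were not compared at like widths or without intervals over small RNA genes. The adjacent nuclear RNAs Malat1 and Neat1 on chromosome 19 had one each. That of Malat1, 1016 bp wide and 4.79 kb away, had folds of 6.58 and 3.76 over 30 and 24 fragments, 459 bp apart. That of Neat1, 729 bp wide and 2.66 kb upstream, had 5.72 and 3.79 over 51 and 31 fragments, 402 bp apart.

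Another CHD4 interval lay within 10 kb of 50 of the 182, 27.5% (21.1 to 34.6), against 17.6% (15.8 to 19.5) of single-summit intervals, and without those over small RNA genes the shares were 22.8% (16.5 to 30.1) and 17.0% (15.2 to 18.9). From 400 to under 1000 bp they were 27.6% (20 to 36.2) and 23.5% (18.7 to 28.9), and in both of these comparisons the intervals overlap. By chromosome the share with several summits was highest on chromosome 13, 17 of 97 (17.5%, 10.6 to 26.6), and lowest among autosomes on chromosome 10, 5 of 114 (4.39%, 1.44 to 9.94). None of the 19 intervals on the X chromosome had several summits, which allows a share of up to 17.6%.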

How the data were processed

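CHD4 and IgG CUT&Tag samples, 2 of each, are represented by 1 deposited peak list, which gives no value per sample. The submitters' processing notes name MACS2 2.1.2, Bowtie2 2.2.5, Trim Galore 0.5.0 and the build mm10. Their order, the handling of duplicates and of multiply placed reads and how replicates were pooled are not given in the sources. Per the file headers the authors' values are a fold (a linear ratio of CHD4 to IgG at the summit) and its log2, and the deposited columns of the caller give −log10 p and −log10 q. A deposited score equals 10 times −log10 q without decimals, and the authors also deposited coordinates, offsets of summits, widths, annotation classes and distances to transcript starts. The largest q was 0.0492. A pair of numeric columns carry a peak's values as their headers, and that peak was not analysed here.

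Rows with the same chromosome, start and end were joined into 1 interval, and a summit was placed at start plus offset, which may be off by 1 base. Positions from a start, negative upstream, use the authors' gene strand and boundaries. Small RNA genes, gene overlaps and promoter sequences came from RefSeq tables of GRCm38.p6, whose chromosomes have mm10 coordinates, and 99.8% of gene identifiers matched. An overlap of 1 base counted. Depth is not stated in the list. It was recovered from each summit's fold and p under a Poisson model in which 1 is added to the scaled CHD4 number and to the IgG expectation. With a scale of 0.429 every one of the 2066 summits had 1 whole-number solution, to within 0.0005 on −log10 p, which puts the CHD4 library at 2.33 times the IgG library. The recovery was tested only on data simulated from the same model, which did not reach the highest fragment numbers and IgG expectations of the list. Such a test does not show that the model holds for the deposited list. IgG expectations have a floor of 0.346. An interval's fold is that of its strongest summit.

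Named were the 10 intervals with the most summits, the 10 of highest fold, the 5 closest and 5 widest spaced pairs, the 5 widest intervals, genes with 2 or more members, the 10 of highest fold among those straddling a start, and members on the gene lists, of which 1 is not reported here; Malat1, Neat1, Rnu12, Trim27, Tmc1, Nop16, Pex13 and Mynn were added after their values were seen. The members and the gene lists were chosen with earlier results of these data known. No test was run, since no value per sample exists; alternatives were other q thresholds, spacings, widths, promoter definitions and the exclusion of small RNA genes. Scripts used Python 3.11.15, pandas 2.3.3, scipy 1.17.1 and matplotlib 3.10.9.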

Additional observations from a re-analysis of the deposited data

How the results depend on the processing

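No value could be set against replicate error, and leaving out a replicate was not run, because the list has no value per sample. No paired analysis was possible because the list has no value per sample. With only summits at −log10 q of at least 2, 110 intervals of 1436 had several summits. Measured to the strongest summit of the interval, the median spacing was 240 bp. With an interval that contains a transcript start as the definition of a promoter, the share was 19.2% against 15.3% for single-summit intervals, so that the order of the groups turned. With the first summit by position in place of the strongest, the median fold was 4.54, below the 4.73 of single-summit intervals. With at least 100 bp required on each side, 5 of 35 intervals straddled the start. Small RNA genes were overlapped by 8.66% against 3.20% from 400 to under 1000 bp, in place of 13.2% against 1.32%. The other 15 alternatives kept the group's value within its 95% interval or, for counts, within 1.5 times, and counting summits under 150 bp apart as 1 left 150 intervals. Within 400 to under 1000 bp, however, the order of the groups turned for promoter share (25.2% against 24.6%) and for fold (5.17 against 5.30). The causes were not tested. Those without small RNA genes for spacing, width and fold, the width class for small RNA genes and for neighbours, and the exon shares without small RNA genes, were chosen after seeing the data. Few fragments per summit limit the ratios within an interval.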
